A study of Mus musculus with 9 samples.

Results

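The ATP-binding cassette (ABC) transporter genes were followed in AML12 cells after knockdown of Srrm2, which encodes a protein of nuclear speckles. A gene was taken as a member when it was protein-coding, was listed in at least 1 of the 2 deposited tables of differential expression, and had a GENCODE M1 symbol that began with Abca, Abcb, Abcc, Abcd, Abce, Abcf or Abcg and a digit. There were 35 such genes among 13643 genes listed in either table, out of 50 ABC genes in the annotation. The table of shRNA 1 listed 33 of them, the table of shRNA 2 listed 35, and Abcc12 and Abcg5 were listed with shRNA 2 alone. The other 15 had no row in either table and were not tested: Abca4, Abca12, Abca13, Abca15, Abca16, Abca17, Abcb4, Abcb5, Abcb11, Abcc9, Abcd2, Abcg1, Abcg3, Abcg4 and Abcg8.

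AML12 (alpha mouse liver 12) is a mouse hepatocyte cell line, and it was grown in all groups with fetal bovine serum, an insulin-transferrin-selenium supplement and dexamethasone. The 3 groups were cells with the control shRNA, cells with Srrm2 shRNA 1 and cells with Srrm2 shRNA 2, delivered by lentivirus and harvested on day 5 of infection, with 3 RNA-seq libraries in each. The labels do not say whether the libraries of a group came from separate cultures, so the p-values measure the spread between these libraries, which may be technical. Each row of a deposited table holds the mean normalized count of a gene over the control and hairpin libraries, the log2 fold change of the hairpin against the control, its standard error (SE) and an adjusted p-value from DESeq2, without values of single libraries. Group means are therefore given here as the values implied by the mean and the fold change, with the 95% interval of the fold change as the error and 3 libraries a group.

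ABC proteins use the energy of ATP to carry substrates across membranes, and every member shares a nucleotide-binding domain whose Walker A motif, a glycine-rich loop ending in lysine and serine or threonine, holds the phosphates of ATP. In hepatocytes, ABC exporters of the canalicular membrane move bile salts, phospholipids, sterols and drug conjugates into bile, exporters of the basolateral membrane return conjugates to blood, and other members serve mitochondria, peroxisomes and lysosomes. The Abce and Abcf proteins keep the nucleotide-binding domains but have no membrane part, and act on ribosomes and translation.

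The coding sequences carried this shared motif in a number that follows the architecture of the protein. Of the listed members, the Abca, Abcc, Abce and Abcf genes and Abcb1a and Abcb1b had 2 Walker A motifs each, as full-length transporters or twin-cassette proteins, while the other members had 1 each and work as dimers. Abcb1a (chr5:8660077-8748575, plus strand) and Abcb1b (chr5:8798147-8866314, plus strand), the P-glycoprotein genes that export drugs and other hydrophobic compounds, are shown because both rose and because their reads are the hardest of the family to tell apart. Each line gives 42 coding bases of mm9, 5′ to 3′, with the Walker A codons in capitals.
Abcb1a, motif number 1 (exon 12): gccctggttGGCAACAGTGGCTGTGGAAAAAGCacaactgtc
Abcb1b, motif number 1 (exon 12): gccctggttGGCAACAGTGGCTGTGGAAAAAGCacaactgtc
Abcb1a, motif number 2 (exon 25): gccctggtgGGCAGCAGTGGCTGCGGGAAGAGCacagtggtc
Abcb1b, motif number 2 (exon 25): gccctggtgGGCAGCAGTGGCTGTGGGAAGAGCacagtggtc
The first motif was identical between the genes, and the second differed by the substitution C24T, counted from the first base printed, with Abcb1a first. Over the whole coding sequence 88.1% of aligned bases were the same. Of all windows of 50 bases in the transcripts, 17% in Abcb1a and 18.1% in Abcb1b also occurred in another coding transcript, that of the sister gene or of Abcb4, and the authors kept uniquely mapped pairs. Windows of 50 bases shared with other genes made up 2.26% of Abca3, 1.89% of Abca8a, 1.42% of Abca8b, 1.21% of Abcd4, 0.250% of Abca6 and 0.205% of Abca9, and 0 of the other listed members.

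The same motif is shown for further members with large changes, in Abcc6 (chr7:53231750-53285672, minus strand), Abcc2 (chr19:43856682-43912441, plus strand) and Abca6 (chr11:110038134-110113090, minus strand). Capitals again mark the Walker A codons.
Abcc6, motif number 1 (exon 16): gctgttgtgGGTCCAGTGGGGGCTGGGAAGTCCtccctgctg
Abcc2, motif number 1 (exon 16): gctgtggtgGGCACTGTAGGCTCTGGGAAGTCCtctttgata
Abca6, motif number 1 (exon 12): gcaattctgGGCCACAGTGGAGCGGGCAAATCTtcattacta

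Srrm2 itself had a log2 fold change of -1.62 (SE 0.07, adjusted p = 4.85e-102) with shRNA 1 and -1.41 (SE 0.07, adjusted p = 3.33e-87) with shRNA 2. The control groups of both tables were the same libraries: implied control means of the tables differed by a constant log2 ratio of -0.08 over 7757 genes (SD 0.0042), so the fold changes with the 2 hairpins share their control and are given side by side. Hepatocyte markers were all listed (8 of 8) and their summed implied level went from 32025 in control to 22386 with shRNA 1, and from 33779 to 25529 with shRNA 2. Apob held most of the control sums, at 22007 and 23211, with log2 fold changes of -0.26 and -0.08. The markers were uneven: Ttr had -2.29 and -2.28, Alb -1.32 and -3.05, and Trf -0.02 and 0.03. Of the 8 hepatocyte markers 6 fell with shRNA 1 and 4 with shRNA 2, and 0 rose. That is 75% and 50% past an adjusted p of 0.05, beside 26.3% and 28.2% of all tested genes. Markers of endothelial cells, stellate cells and macrophages were low or not listed: 0 of 4 endothelial markers were listed, 2 of 6 stellate cell markers summed to 7.01 in control and 16.8 with shRNA 1 (7.33 and 12.0 with shRNA 2), with Col1a2, Col3a1, Acta2 and Pdgfrb not listed, and 3 of 5 macrophage markers summed to 67.9 and 45.3 (72.0 and 53.2). Within these sums the markers went different ways. With shRNA 1 Des went from 1.88 to 14.2 and Col1a1 from 5.13 to 2.58. With shRNA 2 they went from 1.96 to 9.38 and from 5.38 to 2.60. Csf1r had log2 fold changes of -1.51 and -1.63, Ptprc 0.03 and 0.004, and Cd68 0.14 and 0.44. Cholangiocyte or progenitor markers (4 of 5 listed, Epcam not listed) summed to 9854 in control and 7955 with shRNA 1, and to 10397 and 8577 with shRNA 2. These markers went different ways as well. Krt19 had log2 fold changes of 0.26 (adjusted p = 0.0436) and 0.02, and Krt7 -0.37 (adjusted p = 0.000976) and 0.01. Sox9 had -1.11 and -0.86 (adjusted p = 1.34e-26 and 1.29e-18). Spp1, the largest part of the sums, had -0.57 and -0.48 (adjusted p = 0.0794 and 0.272). The part of these shifts in the results for ABC genes was not tested, and in RNA from a whole culture fewer cells of a kind and less RNA per cell cannot be told apart.

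ABC genes covered a wide range of control levels. Per kilobase of exon, the median implied control level of the 33 ABC genes listed in both tables was 51.4 normalized counts, beside 47.7 for 12505 protein-coding genes. Abcc4, a broad exporter of cyclic nucleotides and conjugates, was highest at 384.9 per kilobase, followed by Abca3, a lipid transporter of lysosome-related organelles, at 313.9, Abcc3, a basolateral exporter of glucuronides, at 303.7, and Abce1, the ribosome recycling factor, at 287.5. Further down were Abcf2 at 226.5, Abcd3 at 135.0 and Abcg2, a drug and urate exporter, at 131.6 per kilobase. At the other end stood Abcb1b at 3.91, Abcb9 at 1.51, Abca14 at 1.49, Abcc8 at 0.69 and Abca9 at 0.67 per kilobase, so that the listed members spanned from 0.67 to 384.9. With shRNA 1 Abcb1b stood at 25.2 per kilobase, close to Abcb1a at 29.9, whereas in control cells Abcb1a was at 18.05. The top of the order depended on the length used: per kilobase of the longest coding transcript Abca3 was first at 426.3 and Abcc4 second at 384.9. The spread of a level over libraries is not known here, and the order of neighbouring genes was not tested.

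**Figure D1:**
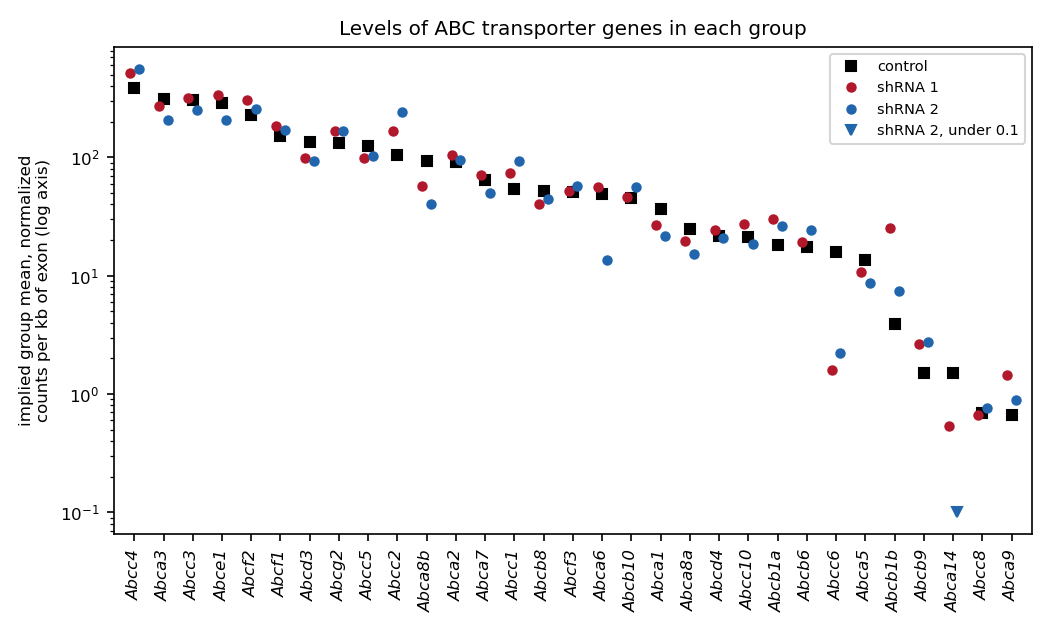
Implied mean normalized count per kilobase of exon (log axis) of 31 of the 33 ABC genes listed in both tables, ordered by their control level, in control cells (squares), with shRNA 1 and with shRNA 2; a triangle marks a value under the axis. Abcc4 leads at 384.9 in control, and the points of Abcc6, at 15.7 in control, and of Abcb1b, at 3.91, lie far from their control squares.

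A larger share of the listed ABC genes than of all listed genes passed an adjusted p of 0.05. With shRNA 1, 9 of 33 ABC genes rose and 8 fell (51.5%), where 26.3% of all tested genes passed (13.6% higher and 12.6% lower). With shRNA 2, 8 of 35 rose and 14 fell (62.9%), where 28.2% of all tested genes passed (14.2% higher and 14% lower). Precision followed the count. Where the mean was 100 or more, 15 of 25 ABC genes passed with shRNA 1 beside 34.1% of all such genes, and 18 of 26 with shRNA 2 beside 36.5%. The median SE of the ABC genes at that level was 0.12 with each hairpin, against 0.80 and 0.95 at a mean below 10. When a log2 fold change beyond 1 in either direction was required as well, 3 of 33 ABC genes passed both thresholds with shRNA 1 (1 higher and 2 lower), beside 6.86% of all tested genes (4.4% higher and 2.46% lower). With shRNA 2, 6 of 35 passed both (2 higher and 4 lower), beside 6.33% of all tested genes (3.87% higher and 2.46% lower). Both counts with shRNA 2 include Abcc12, which was listed there alone and was low in control. Among the falls, both also include Abca14, which had a mean of only 4.63 there. Over the 33 ABC genes listed in both tables, a count added after the data were seen, 7 rose and 14 fell with shRNA 2, and 1 higher and 4 lower passed both thresholds. Abca14 is among the falls of these counts too. The median log2 fold change of the listed ABC genes was 0.13 with shRNA 1 and -0.20 with shRNA 2, where the medians of all listed genes were -0.00 and 0.01.

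**Figure D2:**
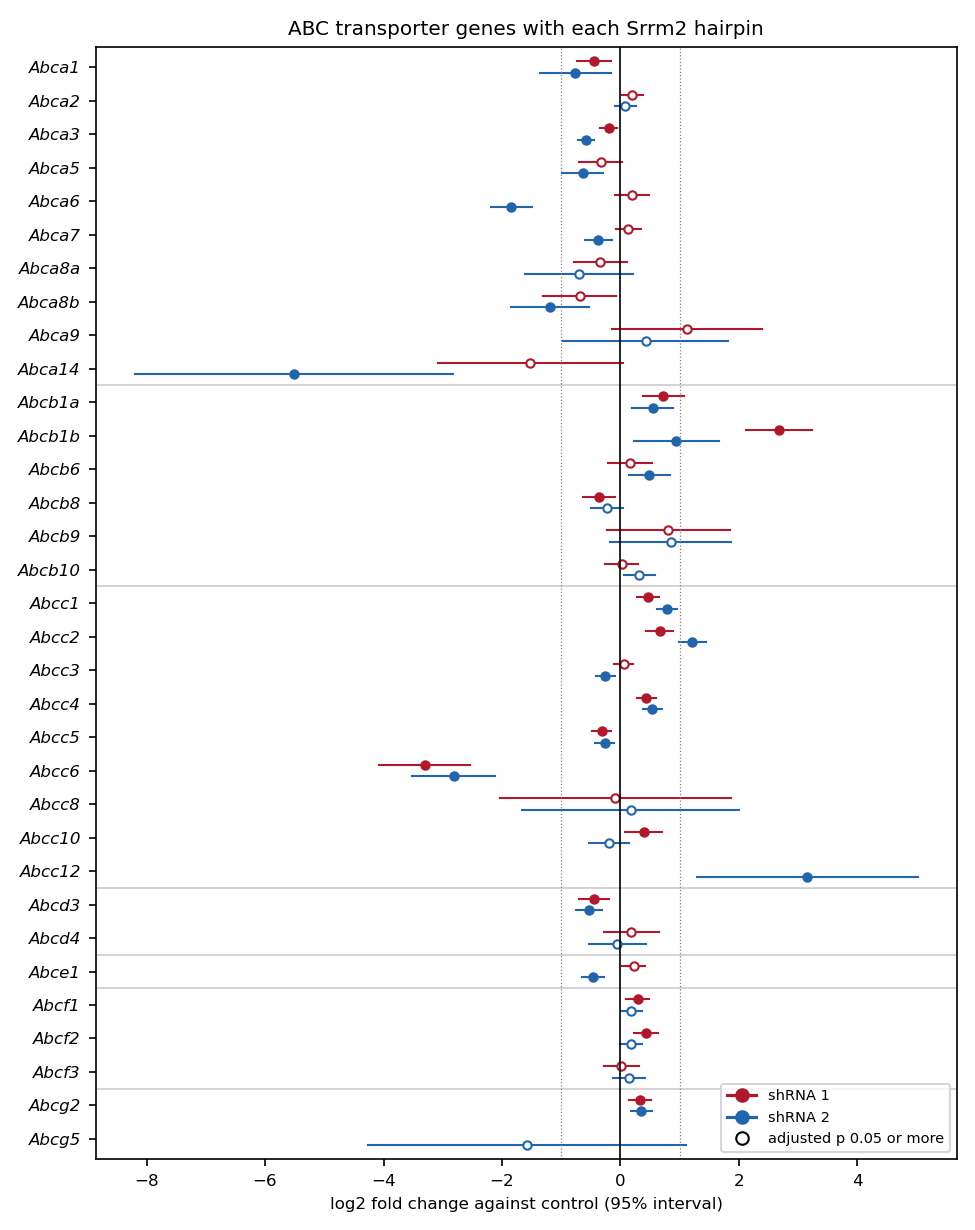
Log2 fold change against control of 33 of the 35 listed ABC genes with shRNA 1 and shRNA 2, by subfamily, with bars for the 95% interval, open symbols for an adjusted p of at least 0.05 and dotted lines at 1 and -1. Abcb1b stands at 2.67 with shRNA 1, Abcc6 at -3.31 and -2.81, and most members lie between the dotted lines.

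Abca genes past the threshold fell, and Abcc genes past it went both ways. Of 10 listed Abca genes, 0 rose and 2 fell with shRNA 1, and 0 rose and 7 fell with shRNA 2. The 7 include the weakly expressed Abca14, at an implied mean of 9.06 in control and 0.198 with shRNA 2. Among the Abcc genes, 4 of 8 rose and 2 fell with shRNA 1, and 4 of 9 rose and 3 fell with shRNA 2. The rises with shRNA 2 include Abcc12, which was listed there alone and was low in control. The 3 Abcf genes gave 2 that rose with shRNA 1 and 0 past the threshold with shRNA 2. Of all tested genes, 26.3% passed with shRNA 1 and 28.2% with shRNA 2. Whether a subfamily differed from the other genes was not tested.

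Of 8 canalicular exporters, 4 rose with each hairpin: Abcb1a, Abcb1b, Abcc2 and Abcg2. They were the 4 of the list with a row in the table of shRNA 1, where the list median was 0.69. With shRNA 2 the median was 0.55 over 5 listed members, Abcg5 included. The shares of listed canalicular exporters past the threshold were 100% of 4 genes and 80% of 5. These are too few genes to set against the shares of all tested genes, 26.3% and 28.2%. Abcb4, the phospholipid floppase of bile, Abcb11, the bile salt export pump, and Abcg8 were not listed. Abcb1b had the largest rise of the family with shRNA 1. Its implied mean went from 17.1 to 109 with shRNA 1, a 6.38-fold rise (95% interval 4.34 to 9.36, adjusted p = 2.71e-19), and from 17.8 to 34.2 with shRNA 2, a 1.92-fold rise (1.17 to 3.17, adjusted p = 0.0394). Its sister Abcb1a went from 99.2 to 164 with shRNA 1, a log2 fold change of 0.72 (SE 0.18, adjusted p = 0.000364), and from 104 to 152 with shRNA 2, a log2 fold change of 0.55 (SE 0.18, adjusted p = 0.00978). Of the exon bases of Abcb1b, 3.29% overlapped a gene on the opposite strand.

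Abcc2, the canalicular exporter of bilirubin glucuronide and glutathione conjugates, passed both thresholds with shRNA 2 alone. Among the listed ABC genes past both with shRNA 2, it had the highest mean normalized count, 1058. Its implied mean went from 604 to 956 with shRNA 1, a 1.58-fold rise (95% interval 1.35 to 1.86, adjusted p = 4.77e-07), and from 636 to 1479 with shRNA 2, a 2.32-fold rise (1.98 to 2.72, adjusted p = 1.95e-23). Abcg2, an exporter of urate, sulfated steroids and drugs, rose less, with log2 fold changes of 0.33 (SE 0.09, adjusted p = 0.0032) and 0.36 (SE 0.09, adjusted p = 0.000473). Abcg5, which pairs with Abcg8 to export sterols, was listed with shRNA 2 alone at a mean of 2.26 and a log2 fold change of -1.58 (SE 1.37, adjusted p = 0.438).

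The basolateral and broad organic anion exporters, the multidrug resistance proteins (MRPs), were split between rises and falls: 3 of 6 listed members rose and 2 fell with shRNA 1, and 3 of 7 passed as higher, Abcc12 among them, and 3 as lower with shRNA 2. These are 83.3% and 85.7% of the listed MRP genes, beside 26.3% and 28.2% of all tested genes. The share with shRNA 2 counts Abcc12, which was listed there alone and only through the group where it is high. Abcc6 had the largest fall among listed members with a mean of at least 10. This gene encodes a hepatic transporter whose loss leads to mineralization of soft tissue. Its implied mean went from 85.9 to 8.69 with shRNA 1, 9.89-fold lower (95% interval 5.81 to 16.8, adjusted p = 1.9e-15), and from 90.6 to 12.9 with shRNA 2, 7.03-fold lower (4.33 to 11.4, adjusted p = 1.22e-13). Per kilobase of exon Abcc6 stood at 15.7 in control, 1.59 with shRNA 1 and 2.24 with shRNA 2.

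The abundant MRP genes shifted by less. Abcc4 rose from 2206 to 2991 with shRNA 1 (log2 fold change 0.44, SE 0.08, adjusted p = 6.01e-07) and from 2325 to 3368 with shRNA 2 (0.53, SE 0.08, adjusted p = 2.28e-09). Abcc1, an exporter of glutathione conjugates and leukotriene C4, rose from 669 to 921 (0.46, SE 0.09, adjusted p = 1.46e-05) and from 705 to 1215 (0.78, SE 0.09, adjusted p = 3.82e-17). Abcc5, an exporter of nucleotide analogs, fell, with log2 fold changes of -0.32 (SE 0.09, adjusted p = 0.00137) and -0.27 (SE 0.08, adjusted p = 0.00694). Abcc3 had a log2 fold change of 0.06 (SE 0.08, adjusted p = 0.684) with shRNA 1 and fell with shRNA 2 (-0.26, SE 0.08, adjusted p = 0.00891). Abcc10, a lipophilic anion exporter, rose with shRNA 1 (0.39, SE 0.16, adjusted p = 0.0472) and had -0.20 (SE 0.17, adjusted p = 0.44) with shRNA 2. Abcc12 was listed with shRNA 2 alone, at an implied mean of 1.22 in control and 10.8 with the hairpin, or about 3.65 and 32.5 normalized counts summed over 3 libraries. A gene this low in control is listed only through the group where it is high, so its difference is given as a description.

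Of 4 exporters of cellular sterols and phospholipids, 2 were listed, of which 1 fell with shRNA 1 and 2 with shRNA 2. These are too few genes to set against the shares of all tested genes, 26.3% and 28.2%. Abca1, which loads cholesterol and phospholipid onto apolipoprotein A-I, went from an implied mean of 382 to 280 with shRNA 1 (log2 fold change -0.45, SE 0.15, adjusted p = 0.0137) and from 404 to 239 with shRNA 2 (-0.76, SE 0.31, adjusted p = 0.0473). Abca7, a related phospholipid transporter, had 0.13 (SE 0.11, adjusted p = 0.42) with shRNA 1 and fell with shRNA 2 (-0.38, SE 0.12, adjusted p = 0.0069). The other genes of this list of 4, Abcg1 and Abcg4, were not listed.

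The Abca5 cluster is a run of 5 related genes on the minus strand of chromosome 11 (mm9, chr11:109793504-110199030), in the order Abca8b, Abca8a, Abca9, Abca6 and Abca5 over 405.5 kb with 0 other protein-coding genes between them. Their coding sequences were the same at 60.3% to 74.8% of aligned bases. With shRNA 1, 0 of the 5 passed the test, and with shRNA 2, 3 of the 5 fell. That is 0% and 60% of 5 genes, too few to set against the shares of all tested genes, 26.3% and 28.2%. Abca6 had the largest difference between hairpins among the 30 ABC genes tested for it: it went from 264 to 301 with shRNA 1 (log2 fold change 0.19, SE 0.14, adjusted p = 0.364) and from 277 to 77.5 with shRNA 2, 3.58-fold lower (95% interval 2.81 to 4.56, adjusted p = 3.29e-23). Abca8b, a hepatic transporter linked to cholesterol efflux, had -0.69 (SE 0.31, adjusted p = 0.0905) with shRNA 1 and fell 2.27-fold with shRNA 2 (1.44 to 3.6, adjusted p = 0.00282). Abca5, a lysosomal and endosomal lipid transporter, had -0.33 (SE 0.19, adjusted p = 0.192) with shRNA 1 and fell with shRNA 2 (-0.64, SE 0.18, adjusted p = 0.00198). Abca8a had -0.34 (SE 0.23) and -0.70 (SE 0.46), and the weakly expressed Abca9 had 1.12 (SE 0.65) and 0.42 (SE 0.71), none of them past the threshold. Of the exon bases of Abca8b, 3.25% overlapped a gene on the opposite strand.

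Abcb1a and Abcb1b form the other run of neighbours that was followed, together with the unlisted Abcb4, over 299.1 kb of chromosome 5 with 0 other protein-coding genes inside (mm9, chr5:8660077-8959225). Both listed genes rose with each hairpin, but by unequal amounts, 2.67 for Abcb1b beside 0.72 for Abcb1a with shRNA 1 on the log2 scale, and 0.94 beside 0.55 with shRNA 2.

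**Figure D3:**
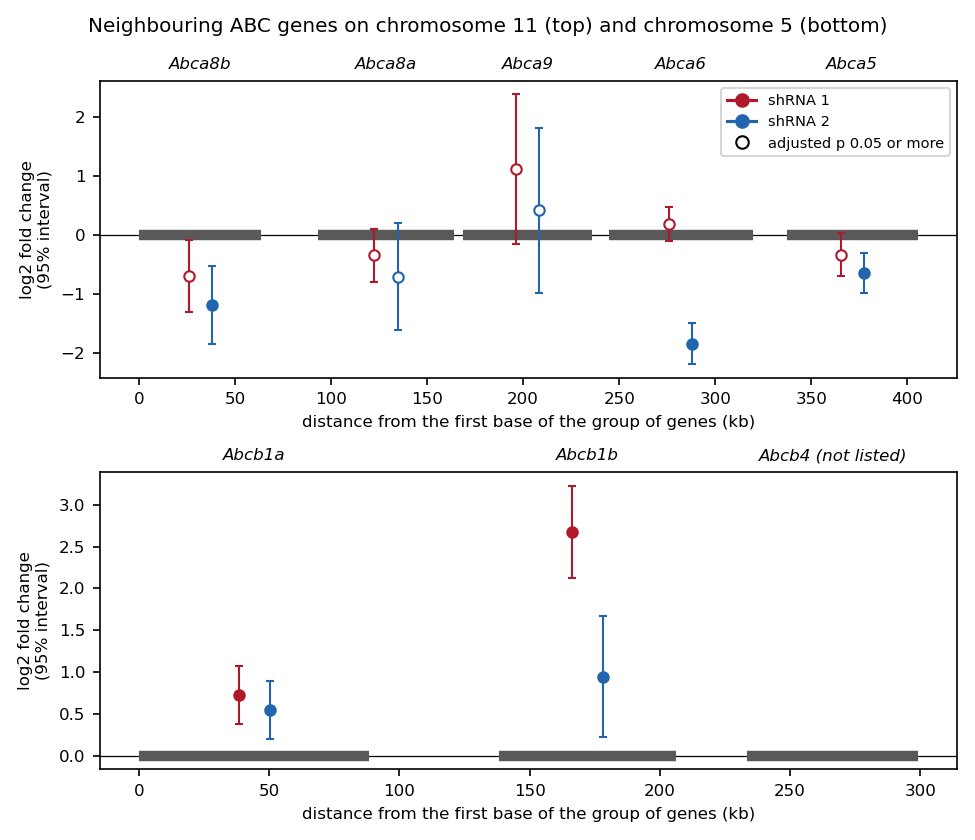
Log2 fold change against control along distance in kilobases for the run of Abca genes on chromosome 11 and the run of Abcb genes on chromosome 5, with 95% intervals, both hairpins and grey bars for the extent of each gene. Abca6 is at 0.19 with shRNA 1 and -1.84 with shRNA 2, its neighbours Abca9 and Abca5 are at 0.42 and -0.64 with shRNA 2, and Abcb4 is drawn as a bar without a value.

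Of 5 listed members placed in endosomes and lysosomes, 0 rose and 1 fell with shRNA 1, and 0 rose and 2 fell with shRNA 2. That is 20% and 40% of 5 genes past the threshold, too few to set against the shares of all tested genes, 26.3% and 28.2%. Abca3 went from an implied mean of 2760 to 2401 with shRNA 1 (log2 fold change -0.20, SE 0.08, adjusted p = 0.0327) and from 2913 to 1941 with shRNA 2 (-0.59, SE 0.07, adjusted p = 5.1e-15). Abca5, given above, was the other gene that fell. Abca2, a lysosomal lipid transporter, had 0.20 (adjusted p = 0.0882) and 0.08 (adjusted p = 0.58), Abcb9, a lysosomal peptide transporter, 0.81 (adjusted p = 0.283) and 0.85 (adjusted p = 0.234), and Abcd4, a lysosomal cobalamin transporter, 0.19 (adjusted p = 0.646) and -0.05 (adjusted p = 0.914). Abca14, a poorly characterized member outside these lists, had a mean of 6.07 in the table of shRNA 1, with a log2 fold change of -1.52 (SE 0.80, adjusted p = 0.155). With shRNA 2 it fell (adjusted p = 0.000456) from an implied mean of 9.06 to 0.198, that is, from about 27.2 normalized counts over the 3 control libraries to 0.594 over the 3 libraries with the hairpin. Set against a floor of 3 counts over the group, the level was at least 9.06-fold lower, and the fitted log2 fold change of -5.51 is not a bound. With shRNA 2 the gene is listed only through the control group, so this difference too is given as a description.

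Among the transporters of mitochondria, Abcb8, a protein of the inner mitochondrial membrane, fell with shRNA 1 (log2 fold change -0.36, SE 0.14, adjusted p = 0.04) and had -0.23 (SE 0.14, adjusted p = 0.214) with shRNA 2. Abcb6, a porphyrin transporter, had 0.16 (SE 0.19, adjusted p = 0.619) with shRNA 1 and rose with shRNA 2 (0.49, SE 0.18, adjusted p = 0.0229). Abcb10, which takes part in heme synthesis, had 0.02 (adjusted p = 0.935) and 0.32 (adjusted p = 0.0614).

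Abcd3, the peroxisomal importer of branched-chain and bile acid precursors, fell from an implied mean of 552 to 405 with shRNA 1 (log2 fold change -0.45, SE 0.13, adjusted p = 0.00241) and from 582 to 404 with shRNA 2 (-0.53, SE 0.11, adjusted p = 2.83e-05). Of 15 peroxisome biogenesis genes, the peroxins, 15 were listed, 1 rose and 1 fell with shRNA 1, and 1 rose and 3 fell with shRNA 2, or 13.3% and 26.7% past the threshold beside 26.3% and 28.2% of all tested genes. The only peroxin that rose was Pex19, the carrier of peroxisomal membrane proteins, with log2 fold changes of 0.65 (adjusted p = 7.46e-07) and 0.57 (adjusted p = 2.01e-05). The median over the peroxins was -0.14 with each hairpin.

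Members without a membrane part were mixed. Abce1, which splits ribosomes after termination, had a log2 fold change of 0.22 (SE 0.10, adjusted p = 0.0934) with shRNA 1 and fell from 1155 to 838 with shRNA 2 (-0.46, SE 0.09, adjusted p = 4.46e-06). Abcf1, a factor of translation initiation, rose with shRNA 1 (0.29, SE 0.10, adjusted p = 0.0194) and had 0.18 (SE 0.09, adjusted p = 0.126) with shRNA 2. Abcf2 rose with shRNA 1 (0.43, SE 0.10, adjusted p = 0.000196) and had 0.18 (SE 0.10, adjusted p = 0.169) with shRNA 2. Abcf3 had 0.01 and 0.15 (adjusted p = 0.967 and 0.479). Among 6 partners of Abce1 in ribosome recycling, 2 rose with shRNA 1, Pelo by 0.53 (adjusted p = 0.0246) and the release factor gene Etf1 by 0.28 (adjusted p = 0.00801), 1 rose with shRNA 2, Hbs1l by 0.24 (adjusted p = 0.0409), and 0 fell with either. These shares of the partners, 33.3% and 16.7%, stand beside 26.3% and 28.2% of all tested genes. The channel regulator Abcc8, a sulfonylurea receptor, had means of 3.38 and 3.78 and log2 fold changes of -0.08 (SE 0.997) and 0.17 (SE 0.93).

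The response of several members differed between the hairpins. The log2 fold change with shRNA 2 was subtracted from that with shRNA 1 and the difference was set against its SE, taken from both SEs as if independent, with a normal approximation. Adjustment was by Benjamini-Hochberg over the 11451 genes whose mean was 10 or more in each table, 30 of them ABC genes. The shared control libraries make this test conservative. The difference passed for 6 ABC genes, where 6.59% of all tested genes passed, and for 2 of them it was beyond 1, where 1.09% of all tested genes were. The difference was 2.03 for Abca6 (95% interval 1.58 to 2.48, adjusted p = 1.85e-15) and 1.73 for Abcb1b (0.82 to 2.64, adjusted p = 0.00626), both higher with shRNA 1. Smaller positive differences were those of Abce1 at 0.69 (adjusted p = 5.06e-05), Abca7 at 0.51 (adjusted p = 0.029) and Abca3 at 0.38 (adjusted p = 0.00629). Abcc2 had a negative difference of -0.55 (adjusted p = 0.0198), with the larger rise in cells with shRNA 2. For Abcc6 the difference was -0.49 (adjusted p = 0.743), not past the threshold, which does not show that the hairpins acted alike.

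**Figure D4:**
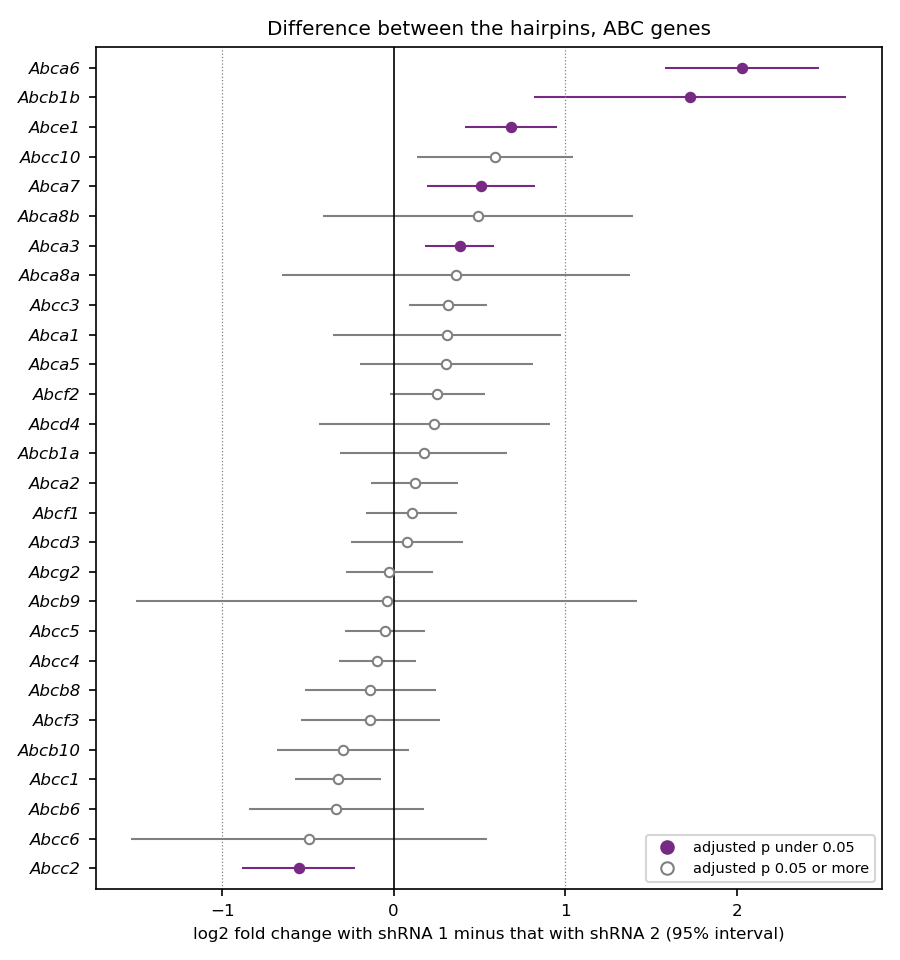
Log2 fold change with shRNA 1 minus that with shRNA 2 for 28 of the 30 ABC genes tested, with 95% intervals and filled purple symbols for an adjusted p under 0.05. Abca6 at 2.03 and Abcb1b at 1.73 are beyond 1, and Abcc2 at -0.55 is the only filled symbol below 0.

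Genes around the transporters were counted from lists of regulators, partners and carriers. Of 21 nuclear receptors and other regulators of transporter genes, 20 were listed, of which 0 rose and 7 fell with shRNA 1, and 1 rose and 4 fell with shRNA 2. These shares, 35% and 25%, stand beside 26.3% and 28.2% of all tested genes. Ppara, the fatty acid receptor, had log2 fold changes of -0.92 (adjusted p = 9.08e-12) and -1.27 (adjusted p = 1.44e-22), Hnf4a, a hepatocyte transcription factor, -0.47 (adjusted p = 3.39e-07) and -0.38 (adjusted p = 7.4e-06), Nr1h3, the oxysterol receptor LXR alpha, -0.38 (adjusted p = 0.048) and -0.52 (adjusted p = 0.00237), and Nr1h4, the bile acid receptor FXR, -0.26 (adjusted p = 0.0288) and -0.98 (adjusted p = 1.41e-21). Among 15 sterol and bile acid partners, 1 of 11 listed rose and 2 fell with shRNA 1, and 1 of 10 rose and 3 fell with shRNA 2 (27.3% and 40% past the threshold, beside the same 26.3% and 28.2%). The apolipoprotein genes Apoa1 (-2.72 and -3.91, adjusted p = 1.88e-09 and 3.9e-13) and Apoe (-1.35 and -1.11, adjusted p = 1.77e-28 and 5.95e-17) fell and Scarb1, the receptor of high density lipoprotein, rose (0.60 and 0.49, adjusted p = 0.00181 and 0.0154). Only 4 of 12 organic anion and cation uptake carriers were listed, with 0 rises and 1 fall with shRNA 1 and 1 rise and 2 falls with shRNA 2, too few genes to set against those shares. Slc22a5, the carnitine carrier, had -0.75 (adjusted p = 1.08e-05) and -0.73 (adjusted p = 2.44e-05). Of 3 family members under other symbols, Tap1, a peptide transporter of antigen presentation, rose with shRNA 1 (1.31, SE 0.30, adjusted p = 9.66e-05) and had 0.73 (SE 0.32, adjusted p = 0.0757) with shRNA 2, and Tap2 and Cftr passed with neither hairpin.

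Promoters were searched for short motifs in the window from 250 bases before to 50 bases after the start of the longest coding transcript, on both strands, for the 35 listed ABC genes and all 12814 listed protein-coding genes. The CCAAT box (CCAAT) was in 13 ABC windows (37.1%) and in 38.0% of all windows, and the GC box (GGGCGG) in 18 (51.4%) and 60.7%. The E-box (CACGTG) was in 6 (17.1%) beside 9.80%, the TATA box (TATAAA) in 4 (11.4%) beside 7.95%, and the core of the antioxidant response element (TGACNNNGC) in 4 (11.4%; Abca8b, Abcc10, Abcc2 and Abcc4) beside 14.2%. Windows of the neighbouring Abca6 and Abca5 differed in GC content, 35.7% and 73.7%, beside a median of 60% over all windows. The 250 bases before the start are given, 5′ to 3′ on the strand of the gene, for the neighbours Abcb1a and Abcb1b and for Abcc6 and Abca6, with motif letters in capitals.
Abcb1a (chr5:8659827-8660076, plus strand): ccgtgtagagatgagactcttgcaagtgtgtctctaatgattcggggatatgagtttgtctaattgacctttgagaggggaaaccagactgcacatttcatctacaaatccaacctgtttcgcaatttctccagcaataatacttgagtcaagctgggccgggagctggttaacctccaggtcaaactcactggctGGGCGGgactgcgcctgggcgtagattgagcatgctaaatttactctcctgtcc
Abcb1b (chr5:8797897-8798146, plus strand): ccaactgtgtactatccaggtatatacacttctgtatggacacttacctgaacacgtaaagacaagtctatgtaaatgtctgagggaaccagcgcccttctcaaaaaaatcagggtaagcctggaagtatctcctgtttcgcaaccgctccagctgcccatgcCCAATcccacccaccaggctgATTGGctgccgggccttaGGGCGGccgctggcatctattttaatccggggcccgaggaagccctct
Abcc6 (chr7:53285673-53285922, minus strand): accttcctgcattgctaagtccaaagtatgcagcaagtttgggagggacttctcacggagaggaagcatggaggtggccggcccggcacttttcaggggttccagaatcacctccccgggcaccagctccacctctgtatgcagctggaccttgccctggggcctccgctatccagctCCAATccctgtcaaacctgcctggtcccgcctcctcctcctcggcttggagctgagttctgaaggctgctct
Abca6 (chr11:110113091-110113340, minus strand): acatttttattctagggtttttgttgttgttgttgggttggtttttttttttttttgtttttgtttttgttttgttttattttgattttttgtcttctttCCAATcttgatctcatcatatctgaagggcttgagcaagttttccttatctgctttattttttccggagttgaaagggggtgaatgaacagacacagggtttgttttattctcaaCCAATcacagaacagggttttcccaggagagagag
Abcb1a and Abcb1b each had a GC box close to the start, and Abcb1b had a pair of CCAAT boxes, 1 on each strand, that the Abcb1a window lacked. The Abcc6 window held a CCAAT box and the Abca6 window a pair of them. These matches describe the letters of the windows, and no binding was measured.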

How the data were processed

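RNA-seq libraries of AML12 cells were grouped from their titles (control, shRNA 1 and shRNA 2; 3 each); the descriptions of 2 control libraries name tables of further hairpins, and the titles were used. The authors trimmed reads, mapped them to mm9 with TopHat2 (maximum indel length 2 bp), kept unique concordant pairs, counted reads per GENCODE M1 gene by HTSeq and compared groups with DESeq2 1.8.2. The strand setting of the counting is not given in the sources used here, and the libraries are described as polyA-enriched and strand-specific, while the labels give total RNA. The deposited mean normalized count is a signal per gene, gene counts divided by size factors. The authors' deposited log2 fold changes, standard errors, p-values and adjusted p-values were used as they stand, and no model was refitted, because the tables hold no value per library. For the same reason the depth of a library is unknown, and precision is read from the standard error.

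Genes were called at an adjusted p under 0.05, and past both thresholds with an absolute log2 fold change over 1; 1 gene in each table has no p-value. Implied means were 2 times the mean divided by 1 plus the fold (control), and that value times the fold (hairpin), for equal groups. Levels per kilobase use the union of exons, with the table of shRNA 2 rescaled by the ratio of implied control means. Intervals are 95% normal intervals. Floors are 3 counts over a group. The difference between hairpins was tested on simulated data beforehand. Sequences were read from the mm9 assembly with the GENCODE M1 annotation. The genes named are the ABC genes past an adjusted p of 0.05 in a table, the highest of each subfamily per kilobase, those differing between hairpins, Srrm2 and at most 4 of each list; further ABC genes were added for completeness. The values of 2 listed ABC genes are not reported here, although both are in the counts over the family. The members and lists were chosen with earlier results of these data known. Alternatives were other thresholds, Benjamini-Yekutieli adjustment, centring, minimum counts, shared control covariance and transcript length. Biopython 1.88, matplotlib 3.10.9, pandas 2.3.3, scipy 1.17.1 and numpy 2.4.6 were run under Python 3.11.15.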

Additional observations from a re-analysis of the deposited data

Results flagged for a closer look

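The change of 6 ABC genes differed between the hairpins by the test of the difference itself. The log2 fold change with shRNA 1 minus that with shRNA 2 was 2.03 for Abca6 (adjusted p = 1.85e-15), 1.73 for Abcb1b (adjusted p = 0.00626), 0.69 for Abce1 (adjusted p = 5.06e-05), 0.51 for Abca7 (adjusted p = 0.029), 0.38 for Abca3 (adjusted p = 0.00629) and -0.55 for Abcc2 (adjusted p = 0.0198). For Abca6, Abce1 and Abca7 the fold changes had opposite signs, positive but not past an adjusted p of 0.05 with shRNA 1 and negative and past it with shRNA 2. Abcb1b and Abcc2 rose with each hairpin, and Abca3 fell with each, so these differ in size.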

How the results depend on the processing

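No paired analysis was possible because the tables hold no value per library, and for the same reason leaving out each replicate in turn was not run. The number of ABC genes past both thresholds was 3 with shRNA 1 and 6 with shRNA 2; it became 6 and 15 with a minimum log2 fold change of 0.5, and 1 and 3 with a minimum mean of 100. The number past an adjusted p of 0.05 with shRNA 2, 22, became 13 with Benjamini-Yekutieli adjustment. The share of all tested genes under each of these settings is not given here, so these counts cannot be read against it. The number that differed by over 1 between hairpins, 2, became 1 with a minimum mean of 100 and 6 with no minimum difference. With the shared control covariance removed, the differences of Abcc1 (adjusted p = 0.00404), Abcc3 (adjusted p = 0.00153) and Abcc10 (adjusted p = 0.00364) passed as well, each under 1 in size. Benjamini-Yekutieli adjustment took 5 named genes with shRNA 1 and 9 with shRNA 2 past the threshold to not past it. The canalicular exporters Abcb1a (adjusted p = 0.0986) and Abcb1b (adjusted p = 0.397) with shRNA 2 were among them. Levels per kilobase moved by over 1.5 times for 6 of 33 genes with the length of the longest coding transcript. Over ABC genes listed in both tables, an alternative chosen after seeing the data, 21 passed an adjusted p of 0.05 with shRNA 2 and 5 passed both thresholds. The cause of these shifts was not tested.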
